A study of Mus musculus with 12 samples.

Results

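To examine what vitamin E added to an iron load did to the miRNA cargo of granulosa cell exosomes, the 3 libraries of the VE group were compared with the 3 libraries of the FAC group. These 6 libraries are part of a series of 12, with 3 libraries in each of 4 groups, and were taken by their treatment labels. The exosomes were collected from the medium of mouse granulosa cells after 48 h of treatment, which followed 24 h in a medium depleted of exosomes. The FAC group received 100 μM ferric citrate, and the VE group received the same 100 μM ferric citrate together with 200 μM vitamin E (VITE). Both groups thus carried the iron load, and by the labels they differed in the antioxidant. The other groups, CON without treatment and DFO with 100 μM ferric citrate and 100 μM deferoxamine mesylate, an iron chelator, appear here only beside these values. By the study's methods, the cells were taken from the follicular fluid of female Kunming mice primed with a gonadotropin, by trypsin and a strainer and with no step that selects granulosa cells. No source states whether the replicates came from separate animals or cultures, so that the p-values measure the spread between these libraries, which may be technical. No library of exosomes from cells given vitamin E without iron was analysed here.

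miRNAs are short RNAs that guide Argonaute proteins to messenger RNAs, mostly through the seed at bases 2 to 8, and lower the output of these messengers. Each hairpin precursor can give a 5p and a 3p arm, of which usually the guide arm is kept and the passenger arm is degraded. Exosomes are small vesicles that carry part of a cell's miRNAs into the surrounding fluid, in the follicle between granulosa cells and the oocyte. Iron in excess drives the oxidation of membrane lipids, the damage that defines ferroptosis, and vitamin E is a lipophilic antioxidant that stops the chain of lipid peroxidation.

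The mature sequences below belong to the miRNAs on which the comparison turned and are shown with the seed in capitals. They were taken from RefSeq (GRCm38.p6), in which 549 of the 637 entries of the files and 41 of the 51 miRNAs past the threshold found a match. The first pairs are the arms of the same hairpins, and the others are miRNAs that were past the threshold.
miR-25-5p: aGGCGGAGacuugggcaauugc
miR-25-3p: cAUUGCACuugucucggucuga
miR-148a-5p: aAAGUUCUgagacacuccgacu
miR-148a-3p: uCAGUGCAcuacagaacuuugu
miR-423-5p: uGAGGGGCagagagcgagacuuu
miR-451a: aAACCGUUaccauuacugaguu
miR-204-5p: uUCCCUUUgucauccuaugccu
miR-9-5p: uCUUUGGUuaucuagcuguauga
miR-203-3p: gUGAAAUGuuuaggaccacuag
miR-27b-3p: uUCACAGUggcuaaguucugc
miR-155-5p: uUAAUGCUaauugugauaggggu
miR-409-3p: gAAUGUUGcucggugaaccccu
miR-543-3p: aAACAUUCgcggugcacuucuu

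On GRCm38.p6, the miR-25 hairpin lies at chr5:138165321-138165404 on the minus strand and overlaps an exon of Mcm7, a subunit of the replicative helicase. The miR-423 hairpin lies at chr11:77078064-77078172 on the minus strand in an intron of Nsrp1, and the miR-204 hairpin at chr19:22750605-22750672 on the plus strand in an intron of Trpm3. The miR-148a hairpin at chr6:51269812-51269910 (minus), the miR-203 hairpin at chr12:112130880-112130955 (plus) and the miR-451a hairpin at chr11:78073170-78073241 (plus) lie in no annotated gene of the same strand other than their own. The miR-27b hairpin lies at chr13:63300712-63300784 on the plus strand and overlaps an exon of 2010111I01Rik, and the miR-155 hairpin at chr16:84714140-84714204 (plus) overlaps an exon of its host transcript Mir155hg. The files carry no coordinates, and the submitters' processing notes name the mm9 build, so that these positions describe the genes and not the mapping. Of the 41 matched miRNAs past the threshold, 0 shared a seed with another of them, and 6 shared a seed with an entry that was tested and not past it. The seed CAGUGCA of miR-148a-3p is also that of miR-148b-3p and miR-152-3p.

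The VE libraries held less miRNA among their reads. Counts on miRNAs made up 9.20%, 12.1% and 14.6% of the library reads in VE replicates 1 to 3 and 30.4%, 21.6% and 22.1% in FAC replicates 1 to 3. All VE libraries lay below all FAC libraries, with a FAC mean 2.07-fold that of VE (two-sided exact permutation test, p = 0.1, the smallest that 3 against 3 allows). Fewer vesicles and less miRNA per vesicle cannot be told apart in such libraries, and neither can more RNA of other kinds. The library totals lay between 24110560 and 24845945 reads, and a 95% Wilson interval spanned at most 0.0362 percentage points, an error of counting alone, because PCR copies of a molecule are counted as separate reads. In VE replicates 1 and 3, 296 and 318 miRNAs had a count and VE replicate 2 had just below 296, against 402, 475 and 299 in the FAC libraries. FAC replicate 3 lay within the VE range, and the groups overlapped (exact permutation test, p = 0.2). With all 6 libraries thinned to the miRNA counts of the smallest, the groups overlapped as well (exact p = 0.4). The 10 most abundant miRNAs held 82.6%, 82.7% and 82.5% of the miRNA counts in VE, a narrow range, and 83.3%, 78.9% and 81.5% in FAC (exact p = 0.4).

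**Figure D1:**
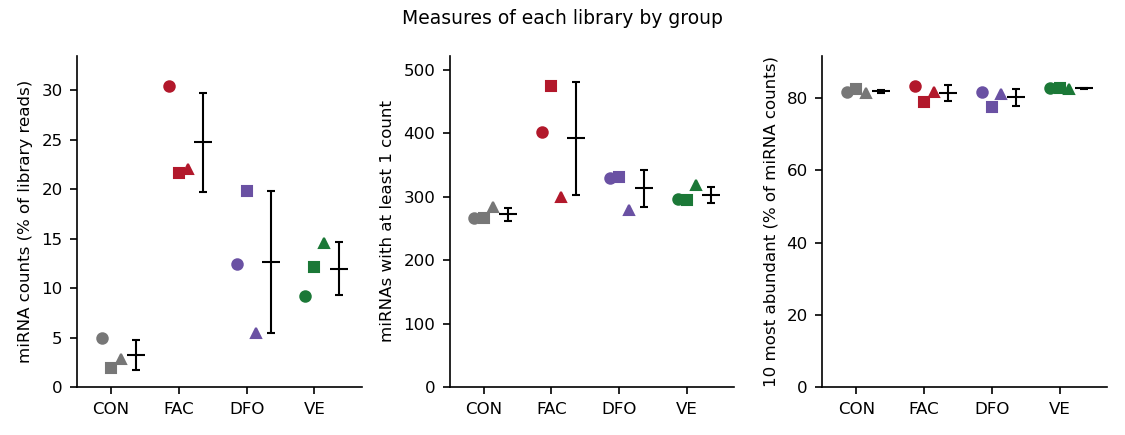
Share of library reads counted on miRNAs, number of miRNAs with at least 1 count and share of miRNA counts in the 10 most abundant miRNAs, for each of the 12 libraries by group. Circles, squares and triangles are replicates 1, 2 and 3, and the bars give the mean and SD (n = 3); the miRNA share of all VE libraries (9.20% to 14.6%) lies below that of all FAC libraries (21.6% to 30.4%).

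FAC replicate 3 stood apart from the other FAC libraries. Over the tested entries, the distance in log2 CPM between FAC replicates 1 and 2 was 44.7, the smallest of any pair in the series. FAC replicate 3 lay 62.5 and 61.0 from them, about as far as from the VE libraries (58.6 to 62.1). Libraries lay 59.1 to 64.9 apart within CON and 56.9 to 65.4 apart within DFO. The mean distance to the VE libraries was 61.7, 60.1 and 60.1 for FAC replicates 1 to 3, so that FAC replicate 3 was not nearer to VE than FAC replicate 2. CPM are here counts scaled to 1e+06 miRNA counts of a library, with TMM factors. The mean distance was 55.0 among the VE libraries, 56.1 among the FAC libraries and 60.6 between the groups. The leading miRNA was miR-148a-3p in FAC replicate 1 (24.7% of miRNA counts), miR-99a-5p in FAC replicate 2 (23.1%) and miR-122-5p in FAC replicate 3 (12.4%). In VE it was the joined entry of miR-486a-5p and miR-486b-5p in replicate 1 (16.8%) and miR-122-5p in replicates 2 and 3 (17.1% and 16.5%). Values without FAC replicate 3 are given below for part of the calls and counts that it changed.

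In edgeR's quasi-likelihood test over 547 entries, 51 miRNAs (9.32%) were past the study's threshold, a fold change of at least 1.5 with an unadjusted p under 0.05. Of these, 27 (4.94%) were higher and 24 (4.39%) lower in VE than in FAC. After Benjamini-Hochberg adjustment, 2 miRNAs (0.366%) had an adjusted p under 0.05, miR-486a-5p with miR-486b-5p, higher in VE, and miR-25-5p, lower in VE. The VE and FAC libraries did not overlap for 80 of the tested entries (14.6%), with VE above FAC for 26 (4.75%) and below it for 54 (9.87%). They did not overlap for 10 of the 27 higher and 15 of the 24 lower miRNAs. The median log2 fold change over all tested entries was -0.63, and it was -0.17 over 506 entries with fold changes against a group of zeros set to their bound and 41 entries at the floor of 3 counts in both groups left out.

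How many calls fell in each direction depended on what the counts were set against. Fold changes in CPM set a miRNA against the rest of its library's miRNAs and leave out the lower miRNA share of VE. Scaled to the library read totals instead, 81 miRNAs were past the threshold, 7 higher and 74 lower in VE, and the median of all tested entries moved from -0.63 to -1.88. All 24 lower miRNAs kept their call on that scale, and 7 of the 27 higher ones did, among them miR-204-5p and miR-9-5p. With DESeq2 on all libraries, 14 miRNAs were higher and 46 lower at the same threshold, 60 in all, of which 30 belonged to the 51. The split was 19 higher and 30 lower with total counts and no composition factor, and 25 higher and 42 lower in a fit of the VE and FAC libraries alone. Single libraries also weighed on the number. It was 27 without FAC replicate 1, 25 without FAC replicate 2, 32 without VE replicate 1 and 33 without VE replicate 2. Without FAC replicate 3 it was 61, and 34 of the 51 kept their call. Whichever VE or FAC library was left out, 11 miRNAs stayed past the threshold, of which miR-23b-5p changed direction.

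**Figure D2:**
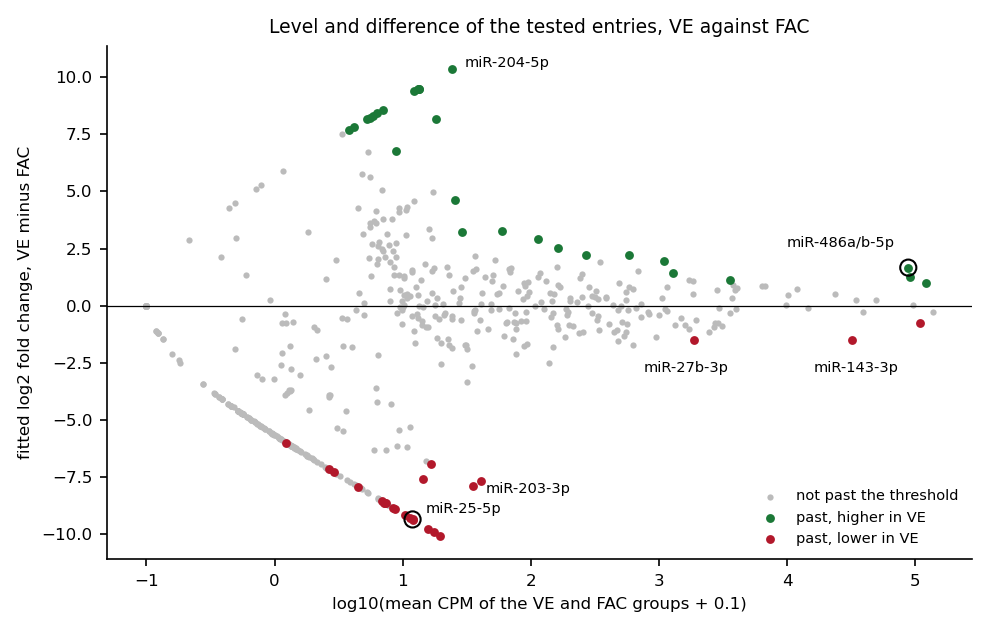
Fitted log2 fold change, VE minus FAC, of the 547 tested entries against log10 of their mean CPM over both groups. Green and red points are the 27 higher and 24 lower miRNAs past the threshold, rings mark the 2 with an adjusted p under 0.05, and the straight diagonals are entries with no count in 1 of the groups, which hold most of the large fold changes.

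In CPM, the vitamin E libraries held more of the abundant miR-486a-5p with miR-486b-5p, miR-423-5p and miR-122-5p and less of miR-143-3p, miR-148a-3p and miR-27b-3p. Of 49 tested entries with a mean of 1000 CPM or more in a group, 9 were past the threshold (18.4%), 6 higher and 3 lower in VE, and the median log2 fold change of the 49 was 0.03.

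miR-486a-5p and miR-486b-5p, which have a joined count and are abundant in red blood cells, stood at 168936, 88569 and 143713 CPM in VE and at 6903, 13073 and 106409 CPM in FAC. FAC replicate 3 lay within the VE range, so that the groups overlapped, and the other FAC libraries were far below it. This gave a log2 fold change of 1.67 with a standard error of 0.39 (edgeR, adjusted p = 0.00453). It was 3.56 without FAC replicate 3 (adjusted p = 2.40e-17), and with any 1 VE or FAC library left out the adjusted p ranged up to 0.518, reached without FAC replicate 2. In RPM, reads scaled to the library read total, the values were 15449, 10014 and 18865 in VE and 2372, 4060 and 21369.9 in FAC, with a log2 fold change of 0.67 that was not past the threshold. CON held 44909 ± 18209 CPM and DFO 45742 ± 35780 CPM (SD, n = 3).

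miR-423-5p showed the same order of libraries, with 136082, 137387 and 113483 CPM in VE and 19856, 9418 and 131944 CPM in FAC. FAC replicate 3 again lay among the VE libraries. In edgeR it was higher in VE by 1.26 on the log2 scale (standard error 0.36; adjusted p = 0.0607), and by 2.97 without FAC replicate 3 (adjusted p = 1.07e-15). Without each of the other VE or FAC libraries in turn, its adjusted p lay as high as 0.711. In RPM the values were 12444, 15534 and 14897 in VE and 6824, 2925 and 26498 in FAC, with FAC replicate 3 above every VE library. Scaled to the library read totals, miR-423-5p was not among the 7 miRNAs past the threshold and higher in VE. The 3p arm of the hairpin stood at 5926, 4051 and 4693 CPM in VE and 1565, 1481 and 4875 CPM in FAC, and did not pass the threshold (log2 fold change 0.89, standard error 0.58).

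miR-122-5p, the dominant miRNA of the liver, stood at 110944, 183381 and 183146 CPM in VE and at 53945, 51894 and 136453 CPM in FAC. FAC replicate 3 was above VE replicate 1, so that the groups overlapped. The difference on the log2 scale was 0.98, with a standard error of 0.35 (adjusted p = 0.284). Without FAC replicate 3 it was 1.41 (edgeR, adjusted p = 0.000448), and its direction turned to -0.18 when counts were scaled to the library read totals. CON held 119758 ± 11565 CPM (SD, n = 3), between both groups.

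miR-143-3p, which marks smooth muscle and stromal cells, was the clearest abundant miRNA to be lower in VE. Its values were 16054, 13784 and 20573 CPM in VE and 66233, 36692 and 39227 CPM in FAC. The groups did not overlap, and the lowest FAC library was above the highest VE library by a wide margin. The fitted log2 difference was -1.496 with a standard error of 0.41 (adjusted p = 0.0566), it lay between -1.78, without FAC replicate 3 (edgeR, adjusted p = 8.83e-05), and -1.18 with any VE or FAC library left out, and it was -2.88 scaled to the library read totals. Its passenger arm miR-143-5p had no count in VE and 148, 66 and 0 counts in FAC, and was past the threshold in the same direction (unadjusted p = 0.0384). CON held 64713 ± 39674 CPM of miR-143-3p and DFO 30465 ± 11224 CPM (SD, n = 3).

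miR-148a-3p, the family member known for repressing the DNA methyltransferase DNMT1, stood at 63630, 93548 and 85154 CPM in VE and at 218949, 97063 and 89428 CPM in FAC. FAC replicate 1 was far above the others, and FAC replicate 3 lay within the VE range. The fitted log2 difference was -0.74 with a standard error of 0.37 (adjusted p = 0.52), and -0.21 without FAC replicate 1, where the call was lost, and -1.14 without FAC replicate 3 (edgeR, adjusted p = 0.0145). Its passenger arm miR-148a-5p had 0 counts in every VE library and stood at 32.4, 20.7 and 41.0 CPM in the FAC libraries, at least 27.8-fold lower in VE (adjusted p = 0.344), and stayed past the threshold whichever VE or FAC library was left out. The levels of miR-148b-3p (log2 fold change -1.06) and miR-152-3p (-1.79), which share its seed, were below FAC in all VE libraries but did not pass the threshold.

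miR-27b-3p, a regulator of lipid metabolism genes, stood at 727, 1025 and 1202 CPM in VE and at 4098, 2783 and 1491 CPM in FAC, with no overlap (log2 fold change -1.503, standard error 0.69, adjusted p = 0.446). The remaining abundant miRNAs past the threshold were miR-615-3p (log2 fold change 1.12, standard error 0.55), miR-409-3p (1.43, standard error 0.72) and miR-451a (1.94, standard error 0.83). In miR-615-3p and miR-409-3p, FAC replicates 1 and 2 were low and FAC replicate 3 was close to VE in CPM. In RPM, miR-615-3p stood at 565, 530 and 507 in VE and 306, 289 and 995 in FAC. Its call was lost when scaled to the library read totals. Without FAC replicate 3 the log2 fold change of miR-615-3p was 2.25 (edgeR, adjusted p = 0.0115). In miR-451a, VE replicate 3 held 3798 CPM against 662 and 779 CPM in the other VE libraries, and without VE replicate 3 the log2 fold change was 0.67 and the call was lost.

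The most abundant miRNAs that were not past the threshold showed how far the libraries agreed. miR-99a-5p stood at 116355, 125268 and 128318 CPM in VE and at 173153, 161332 and 113504 CPM in FAC (log2 fold change -0.28, standard error 0.35), and without FAC replicate 3 it was past the threshold at -0.62. let-7c-5p stood at 68721, 110258 and 113556 CPM in VE and at 74083, 90070 and 121407 CPM in FAC (log2 fold change 0.03, standard error 0.33). For miR-151-3p, miR-10b-5p and miR-99b-5p the log2 fold changes were 0.26, -0.25 and 0.24, each smaller than its standard error, and scaled to the library read totals the first and the last turned to -1.01, as let-7c-5p did to -1.21. Reads of miR-99a, miR-99b and miR-100 and of the let-7 members can be hard to part, and how the authors' counting split them is not given in the sources used here.

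**Figure D3:**
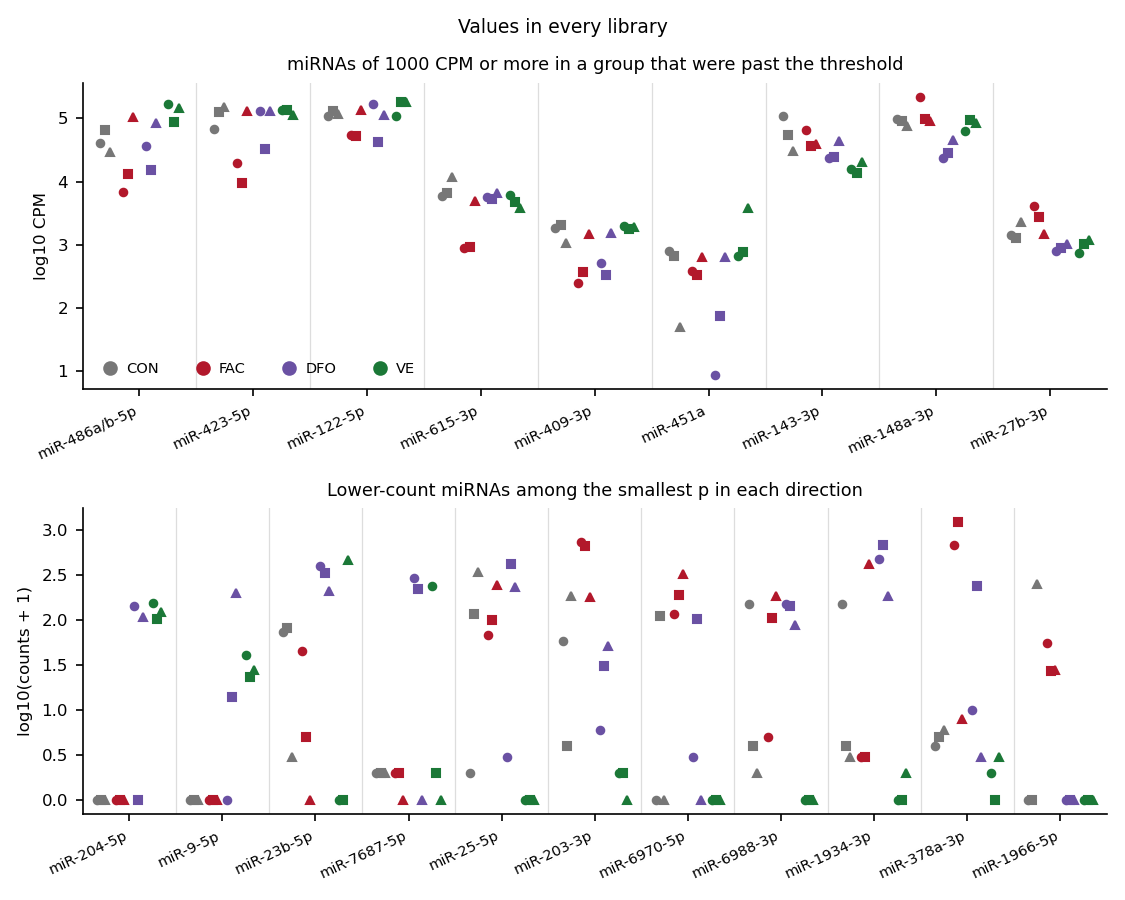
Values of the miRNAs past the threshold in each of the 12 libraries, as log10 CPM for the 9 with 1000 CPM or more in a group (top) and as log10(counts + 1) for lower-count miRNAs among the smallest p in each direction (bottom). Colours are groups and circles, squares and triangles are replicates 1, 2 and 3; FAC replicate 3 lies with VE for miR-486a/b-5p, miR-423-5p, miR-615-3p and miR-409-3p, and miR-143-3p is lower in all VE libraries than in all FAC libraries.

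Below these levels, more entries were absent from VE than from FAC. In all, 194 entries were counted in FAC but at 0 throughout VE, 53 had the reverse, 345 were counted in both groups and 45 in none of the 6 libraries. With no count in VE and counts in every FAC library there were 24 entries, and with the reverse pattern 8. Of the 24 miRNAs lower in VE, 17 were at 0 throughout VE, and 21 had at most 3 counts in each. Of the 27 higher in VE, 12 were at 0 throughout FAC, and 11 drew over 90% of their VE level from 1 library. The FAC libraries were deeper in miRNA counts (5219420 to 7565362) than the VE libraries (2227419 to 3530978), and 3 counts were worth 0.397 to 0.575 in FAC and 0.850 to 1.35 in VE, as unscaled CPM.

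miR-25-5p, usually the passenger arm of a hairpin of the miR-106b to miR-25 cluster, had 67, 100 and 245 counts in the FAC libraries and 0 in every VE library. The groups did not overlap, and the FAC level was at least 20.9-fold that of VE (adjusted p = 0.00453). Its adjusted p was 0.125, 0.0940 and 0.103 without VE replicates 1, 2 and 3, and 0.00660, 0.00501 and 0.00618 without FAC replicates 1, 2 and 3. Over the other fits its adjusted p lay between 0.00101 and 0.331. CON had 1, 115 and 343 counts and DFO 2, 418 and 232, so that a library near 0 occurred there too. The 3p arm of the same hairpin was nearly level in CPM, at 16345, 12485 and 13685 CPM in VE and 17285, 13163 and 14645 CPM in FAC (log2 fold change -0.08, standard error 0.49). In RPM it stood at 1495, 1412 and 1796 in VE and 5940, 4088 and 2941 in FAC, so that all VE libraries lay below all FAC libraries.

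miR-203-3p, an epithelial miRNA of skin, had 724, 659 and 180 counts in FAC and 1, 1 and 0 in VE, without overlap. Its CPM ratio of FAC to VE was 304, with a 95% counting interval of 83.9 to 2509 (log2 fold change -7.87, adjusted p = 0.0607), and it had an adjusted p of 0.0300 without FAC replicate 3. miR-193b-3p had 494, 430 and 5 counts in FAC and 0 in every VE library, at least 34.3-fold lower in VE (adjusted p = 0.344). Its 5p arm was counted in all 6 libraries, at 202, 224 and 215 CPM in VE and 19.1, 20.0 and 301 CPM in FAC (log2 fold change 0.92, standard error 0.90). miR-155-5p, made from the inflammatory transcript Mir155hg, had 90 to 311 counts in FAC and 0 in every VE library, at least 21.1-fold lower in VE (adjusted p = 0.444). For miR-203-3p and miR-155-5p every FAC library was well above every VE library, whereas the 5 counts of miR-193b-3p in FAC replicate 3 were 1.02 CPM, within the range of what 3 counts were worth in the VE libraries, and its call rested on FAC replicates 1 and 2. miR-6970-5p had 114, 187 and 322 counts in FAC and none in VE, at least 30.6-fold lower in VE (adjusted p = 0.0607). miR-1966-5p, with 55, 26 and 27 counts in FAC, also had none in VE, and it was at 0, 0 and 251 counts in CON.

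Other calls of this kind rested on part of the FAC libraries. miR-1934-3p had 2, 2 and 418 counts in FAC and 0, 0 and 1 in VE, and without FAC replicate 3 its log2 fold change went from -7.56 to -1.05 and the call was lost. miR-378a-3p, which lies in a gene of mitochondrial biogenesis, had 670, 1214 and 7 counts in FAC and 1, 0 and 2 in VE. miR-6988-3p had 4, 105 and 183 counts in FAC and none in VE. miR-210-3p, the miRNA induced by hypoxia, had 3, 2 and 209 counts in FAC and none in VE, so that its level in FAC was that of 1 library.

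Higher in VE without any count in FAC were miR-204-5p and miR-9-5p, the only entries with at most 3 counts in each FAC library and at least 10 in each VE library. miR-204-5p, an arm of a hairpin in the ion channel gene Trpm3, had 152, 102 and 120 counts in VE and 0 in every FAC library, at least 105-fold higher in VE (adjusted p = 0.0618). It was also at 0 in every CON library and was counted in 2 of 3 DFO libraries. Its 3p arm was counted in every FAC and VE library, at 379, 430.5 and 370.2 CPM in VE and 214.3, 86.5 and 459 CPM in FAC (log2 fold change 0.63, standard error 0.95). miR-9-5p, a neural miRNA with 3 gene copies, had 40, 22 and 27 counts in VE and 0 in every FAC library, at least 25.4-fold higher in VE (adjusted p = 0.344). By contrast, miR-23b-5p had 0, 0 and 464 counts in VE and 44, 4 and 0 in FAC, and miR-7687-5p had 237, 1 and 0 in VE and 1, 1 and 0 in FAC. Without VE replicate 3 the log2 fold change of miR-23b-5p turned from 4.64 to -5.75, and without VE replicate 1 that of miR-7687-5p was 0.81 and not past the threshold.

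Counts of this size stood close to a step in the libraries. The most frequent level between 10 and 500 counts, here called the lowest mode, was 98.1, 87.4 and 111 counts in the VE libraries and 58.7, 20.2 and 197 in the FAC libraries. miR-204-5p stood at 1.55, 1.17 and 1.08 modes in VE, and miR-25-5p at 1.14, 4.94 and 1.24 modes in FAC. Of the 51 miRNAs past the threshold, 29 (56.9%) had a highest count under 5 modes of its library, as had 61.1% of all tested entries. The part of this step in the calls was not tested.

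**Figure D4:**
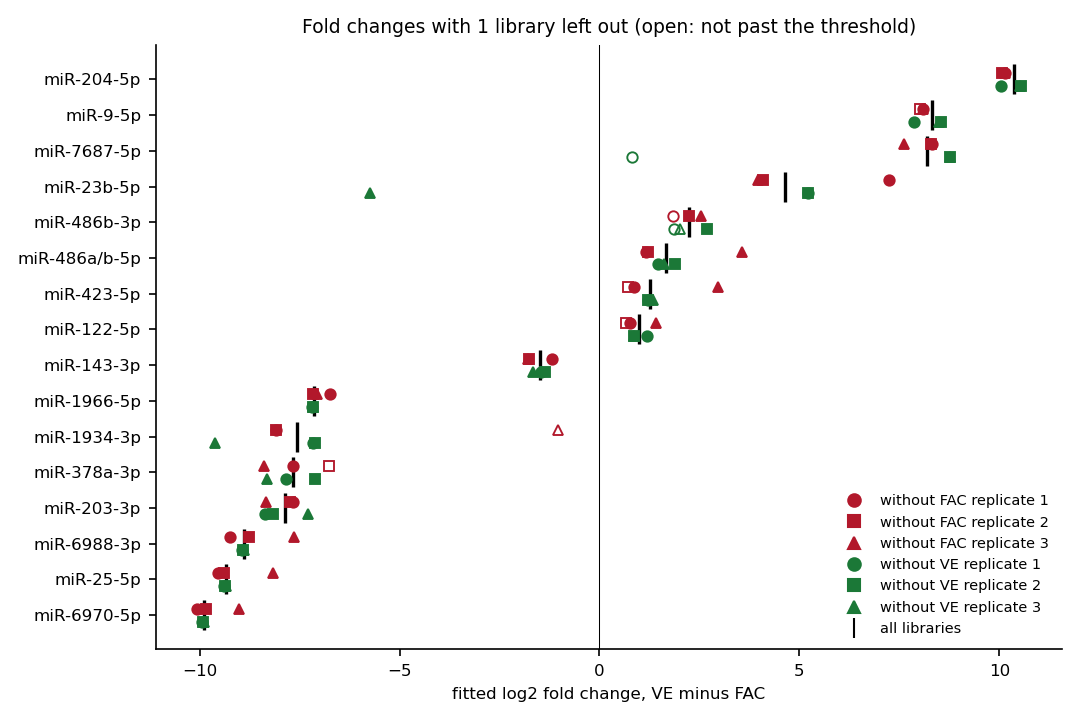
Fitted log2 fold change, VE minus FAC, of the 8 miRNAs with the smallest p in each direction, with all libraries (bar) and with each FAC or VE library left out (red and green symbols for replicates 1 to 3). Open symbols were not past the threshold; miR-23b-5p changes sign without VE replicate 3, miR-1934-3p moves to -1.05 without FAC replicate 3, and miR-143-3p stays between -1.78 and -1.18.

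Of the miRNA families and clusters, the imprinted Dlk1-Dio3 cluster, expressed from the maternal chromosome, was the largest. Of its 40 tested members of 46, 3 were past the threshold and higher and 1 was lower, a share of 10.0% beside 9.32% of all tested entries, and the median log2 fold change was 0.01 against -0.63 over all tested entries. miR-409-3p stood at 1957, 1783 and 1873 CPM in VE and 246, 364 and 1475 CPM in FAC. miR-485-5p stood at 323, 691 and 314 CPM in VE and 46.8, 47.0 and 188 CPM in FAC (log2 fold change 2.24, standard error 1.00). miR-543-3p stood at 238, 215 and 375 CPM in VE and 15.1, 10.7 and 119 CPM in FAC (log2 fold change 2.52, standard error 1.16). In all 3, the VE libraries lay above all FAC libraries in CPM, and FAC replicate 3 was the highest of the FAC libraries. In RPM the groups overlapped in all 3. FAC replicate 3 was above every VE library for miR-409-3p (296 against 179, 202 and 246). It was above VE replicate 1 for miR-485-5p (37.8 against 29.6) and miR-543-3p (23.9 against 21.8). None of the 3 kept its call when scaled to the library read totals. The member lower in VE was miR-667-3p, with 59, 0 and 181 counts in FAC and none in VE. Without FAC replicate 3, 3 members were higher and none was lower. Summed over the cluster, VE held 5340.4, 5293 and 5201 CPM and FAC 1820.0, 2092 and 5089 CPM, so that FAC replicate 3 was again close to VE.

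In the miR-23, miR-27 and miR-24 clusters, all 11 members were tested, and 1 was lower (miR-27b-3p) and 1 higher (miR-23b-5p). This was 18.2%, beside 9.32% of all tested entries, and the median log2 fold change was -0.94. Without FAC replicate 3, 1 was higher and 3 were lower, with miR-23a-3p and miR-24-3p added. miR-23a-3p stood at 496, 490.2 and 577 CPM in VE and 1640.1, 1623 and 818 CPM in FAC, with no overlap, and did not pass the threshold (log2 fold change -1.38, standard error 0.85). The summed level was 3338, 5146 and 4174 CPM in VE and 11773, 9953 and 5269.6 CPM in FAC. In the miR-148 and miR-152 family, 2 of 5 tested members were lower (40.0%, beside 9.32% of all tested entries past the threshold) and none higher, with a median of -1.06. Both were arms of the miR-148a hairpin, and the call of the 3p arm was lost without FAC replicate 1. None of the 11 tested members of the miR-30 family passed the threshold (median -1.02), and 2 were lower without FAC replicate 3. None of the 11 let-7 and miR-98 guide arms (median 0.03) and none of the 13 tested members of the miR-10, miR-99, miR-100 and miR-125 family (median 0.02) passed it, the families that make up much of the cargo. Without FAC replicate 3, 1 let-7 guide arm was higher (let-7b-5p) and 1 lower (let-7i-5p), and in the other family 2 were higher (miR-125a-5p and miR-125b-1-3p) and 2 lower (miR-99a-5p and miR-10b-3p). In the miR-17 to miR-92a, miR-106a and miR-106b clusters, 1 of 13 was past the threshold (miR-25-5p, 7.69%). None of the tested members of the miR-15 and miR-16 family (9), the miR-26 and miR-29 families (8), the miR-181 family (7), the miR-221 and miR-222 cluster (4), the let-7 and miR-98 passenger arms (8) or the rodent miR-297, miR-466, miR-467 and miR-669 cluster (9) passed the threshold. Without FAC replicate 3, 1 of the passenger arms was higher.

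Of miRNAs linked to granulosa cells and steroidogenesis, 21 of 23 were tested, 3 were lower in VE and none higher (14.3% past the threshold, beside 9.32% of all tested entries), with a median log2 fold change of -0.89. The 3 were miR-378a-3p and miR-143-3p with miR-143-5p, the arms of 1 hairpin. Without FAC replicate 3, 1 member was higher and 3 were lower. The summed level of the list was 30356, 34278 and 39230.1 CPM in VE and 87783, 50891 and 57685 CPM in FAC, without overlap. This rested on miR-143-3p, without which the sum was 14303, 20494 and 18657 CPM in VE and 21550.2, 14199 and 18458 CPM in FAC, and the groups overlapped. miR-21a-5p, an abundant miRNA of granulosa cells after ovulation signals, did not pass the threshold (log2 fold change -0.85), nor did miR-224-5p (-0.63), miR-182-5p (-0.75) or miR-183-5p (-0.15). Among miRNAs linked to iron, redox balance and ferroptosis, 34 of 38 were tested, 3 were higher and 3 lower (17.6%, beside 9.32% of all), with a median of -0.89, and without FAC replicate 3 there were 5 higher and 4 lower. The higher ones were miR-122-5p, miR-9-5p and miR-194-2-3p, the last with 175, 0 and 0 counts in VE and none in FAC. The lower ones were miR-27b-3p, miR-155-5p and miR-210-3p. Among 16 miRNAs linked to hypoxia, p53 and inflammation, 1 was higher and 2 were lower, the same miR-9-5p, miR-155-5p and miR-210-3p (18.8%, beside 9.32% of all), with a median of -1.12. Without FAC replicate 3, 1 was higher and 1 lower.

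**Figure D5:**
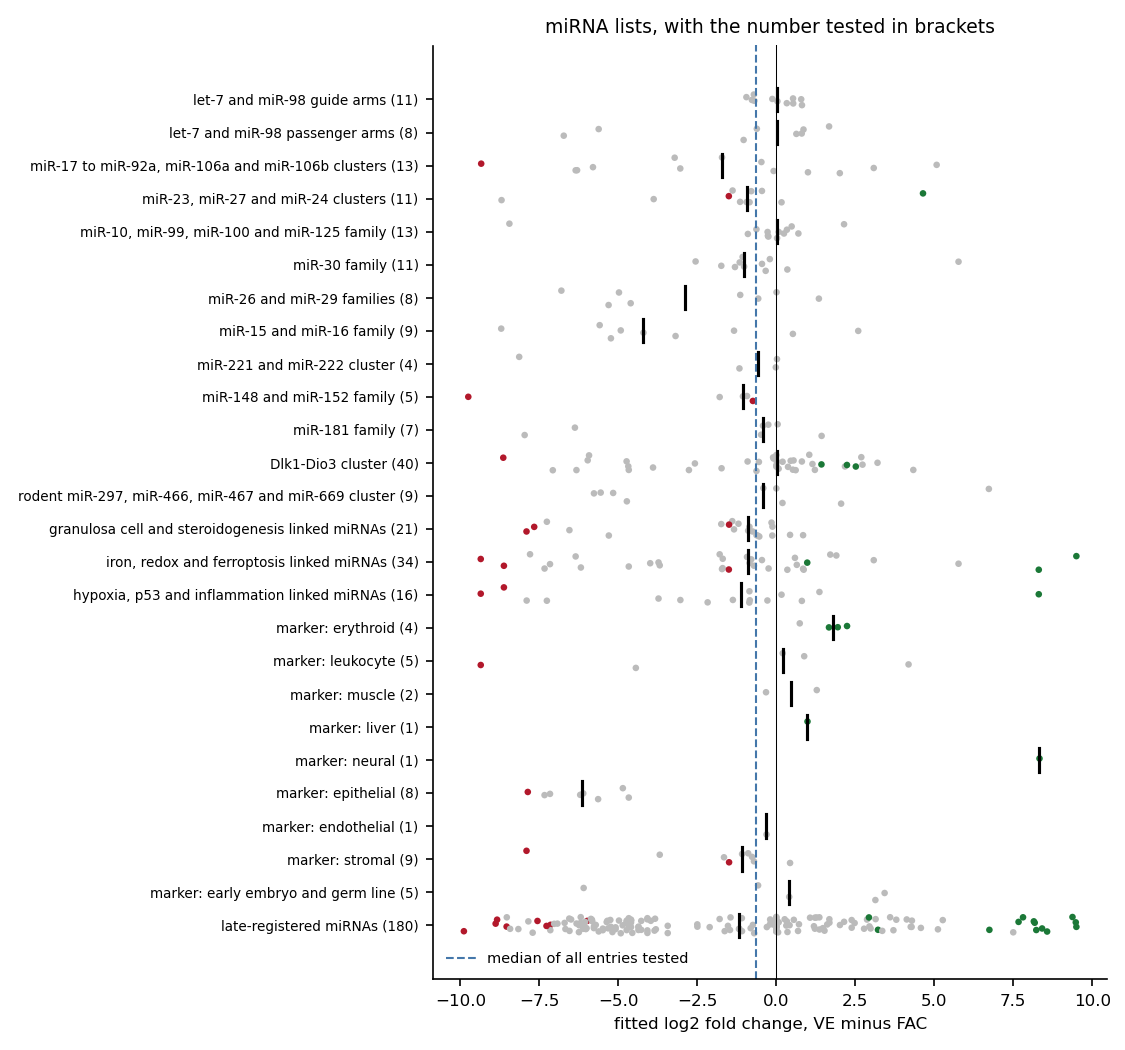
Fitted log2 fold change, VE minus FAC, of the tested members of each miRNA list (points), with the list's median (black bar) and the median of all tested entries (dashed line, -0.63). Green and red points are members past the threshold and higher or lower in VE. The erythroid list has 3 of 4 tested members higher (75.0%, beside 9.32% of all tested entries past the threshold), and the let-7 guide arms none past the threshold. None of the 3 erythroid members kept its call when scaled to the library read totals.

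Of the 14 miRNAs that the study chose on these samples as changed in all of its comparisons with FAC, 4 were higher and 2 lower in VE here. This was 42.9%, beside 9.32% of all tested entries. Because of that choice, neither the share nor the direction is independent evidence. Without FAC replicate 3, 1 was higher (miR-485-5p) and 3 were lower (miR-1966-5p, miR-690 and miR-23a-3p). miR-342-5p, an arm of a hairpin in an intron of Evl, stood at 129, 129 and 61.9 CPM in VE and 7.03, 25.6 and 0.406 CPM in FAC (log2 fold change 3.27, standard error 1.46). miR-5106 stood at 82.7, 33.9 and 41.2 CPM in VE and 3.98, 12.4 and 0.406 CPM in FAC (log2 fold change 3.22, standard error 1.51). miR-5119 stood at 222.7, 106 and 269 CPM in VE and 3.98, 68.8 and 5.48 CPM in FAC (log2 fold change 2.93, standard error 1.22). In these and in miR-485-5p, all VE libraries lay above all FAC libraries in CPM. In RPM this held for miR-342-5p but not for the others. FAC replicate 2 was above VE replicate 2 for miR-5106 (3.86 against 3.83) and above VE replicate 1 for miR-5119 (21.4 against 20.4). Lower were miR-1966-5p and miR-690, the latter with 170, 317 and 0 counts in FAC and none in VE. Of the 8 others, miR-23a-3p, let-7c-1-3p, miR-140-5p and miR-369-5p were below FAC in all VE libraries without passing the threshold. The log2 fold changes of miR-221-3p, miR-23b-3p, miR-26b-5p and miR-5128 were -1.17, -1.15, -6.80 and 3.35, with overlapping groups. In CPM, all VE libraries lay above all FAC libraries for 4 of the 14 and below them for 5, beside 4.75% and 9.87% of all tested entries. Entries numbered above 1000 in the registry made up 13 of the 27 higher and 8 of the 24 lower miRNAs, and 180 of the 547 tested. Of these 180 entries, 11.7% were past the threshold, beside 9.32% of all tested entries. Without FAC replicate 3, 5 of them were higher and 7 lower.

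Some of the listed markers of other cell types differed between the groups. They are not exclusive to those cells, and the arms of miR-143 and miR-145a are in both the stromal list and the granulosa cell list. The erythroid list summed to 171759, 90366 and 149533 CPM in VE and 7423, 13650.0 and 108677 CPM in FAC. Of its 4 tested members, 3 were higher in VE (miR-486a-5p with miR-486b-5p, miR-451a and miR-486b-3p), 75.0% beside 9.32% of all tested entries past the threshold. None of these 3 kept its call when scaled to the library read totals. miR-486b-3p is the other arm of a miR-486 hairpin. Its groups overlapped in RPM, with 127, 27.2 and 162 in VE and 26.6, 66.2 and 63.5 in FAC. The remaining tested member, miR-486a-3p, did not pass the threshold (log2 fold change 0.74, standard error 0.86). Without FAC replicate 3, all 4 were past the threshold and higher. In RPM, miR-451a stood at 60.5 and 88.0 in VE replicates 1 and 2, below all FAC libraries (104 to 131), and its call was lost without VE replicate 3. miR-144-3p, which shares its primary transcript with miR-451a, was at 0 in all 6 libraries. The liver list rested on miR-122-5p. The stromal list summed to 16442, 14056 and 21061 CPM in VE and 66873, 37456 and 39786 CPM in FAC. It had 2 of 9 members lower (22.2%) and none higher, both arms of the miR-143 hairpin. Without miR-143-3p it summed to 388, 272 and 488 CPM in VE and 640.3, 763 and 558 CPM in FAC. The epithelial list summed to 0.452, 0.365 and 0 CPM in VE and 119, 113 and 37.0 CPM in FAC. Of its 8 tested members, 1 was lower (12.5%), miR-203-3p, while miR-141-3p was at 0 in all 6 libraries. Of the 5 tested leukocyte markers, 1 was lower (miR-155-5p, 20.0%), and the list overlapped between the groups. The neural list rested on miR-9-5p, its 1 tested member, which was higher in VE. None of the tested muscle (2), endothelial (1) and early embryo and germ line (5) markers passed the threshold. With the erythroid and liver entries left out of the counts, 48 miRNAs passed the threshold and 43 of these belonged to the 51, which included 4 of the entries left out. The part of these cells in the other differences was not tested.

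The comparisons of VE and of FAC with CON share libraries with the present one, and their values are given only side by side. For miR-143-3p the log2 fold change was -1.95 for VE minus CON (adjusted p = 0.00103) and -0.45 for FAC minus CON. For miR-486a-5p with miR-486b-5p it was 1.57 (adjusted p = 0.00821) and -0.09. For miR-203-3p it was -8.57 (adjusted p = 0.0252) and -0.70, and for miR-423-5p it was 0.17 and -1.09.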

How the data were processed

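Small RNA of exosomes was sequenced on an Illumina HiSeq with reads of 15 to 41 bp. Per library the authors deposited raw read counts of 637 miRNA entries, 5 of which join a pair of miRNAs, and the same values as RPM, counts scaled to the library read total (named TPM by the authors). The aligner, the counter and how a read with several matching miRNAs was counted are not given in the sources used here. The submitters' processing notes name mm9.

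Groups were taken from the treatment labels. The 547 entries whose 12 libraries summed to 10 counts or more entered 1 edgeR quasi-likelihood fit of the 4 groups with TMM factors (edgeR 4.0.16, R 4.3.3; common biological coefficient of variation 1.57), with the study's threshold of a fold of 1.5 and a p of 0.05, and with Benjamini-Hochberg adjustment over all tested entries. Library measures were compared by two-sided exact permutation tests (scipy 1.17.1). The alternatives were other scalings and filters, thinned counts, the VE and FAC libraries alone, DESeq2 1.42.0, limma 3.58.1 on log2(RPM + 1) and log2(RPM + 0.1), a replicate block and the omission of each library. The scripts were tested on simulated data. For a group without counts, folds were set against a floor of 3 counts per library. A ratio against a group of 1 to 3 counts has an exact counting interval.

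Each of the 66 pairs of libraries differed far beyond sampling noise (chi-square per degree of freedom at least 156). Named were the miRNAs with an adjusted p under 0.05, the 8 with the smallest p in each direction, the 10 most abundant, the 14 of the study, list members past the threshold and other arms of the same hairpins. Other miRNAs were named after their values were seen. The members and lists were chosen with earlier results of these data known.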

Additional observations from a re-analysis of the deposited data

How the results depend on the processing

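Of the 51 miRNAs past the threshold, the number moved to 81 with library read totals, 79 with DESeq2 on the VE and FAC libraries, 103 and 91 with limma on log2(RPM + 1) and log2(RPM + 0.1), 33 with thinned counts and 32 with the replicate block. It ranged from 25 to 61 with 1 library left out. The number with an adjusted p under 0.05 moved from 2 to 5 with RLE factors, 6 with library read totals, 4 without a filter, 19 and 24 with DESeq2 on all libraries and on the VE and FAC libraries, and 1 without the erythroid and liver entries, a setting chosen after seeing the data, as were the list sums without miR-143-3p. It was 0 with edgeR's filterByExpr (36 past the threshold) and 0 with limma on log2(RPM + 1), and 0 to 9 with 1 library left out. Same-numbered VE and FAC libraries did not deviate together over the tested entries (mean r = 0.00469, from -0.0372 to 0.0690). With 3 libraries per group and many entries of low count, this cannot exclude that the numbers pair them. The replicate block left 14 higher and 18 lower, 3 with an adjusted p under 0.05.

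The difference in the share of the most abundant miRNAs turned from 1.36 percentage points for the top 10 to -4.55 for the top 3. With library read totals, log2 fold changes reversed to -0.18 for miR-122-5p, -1.21 for let-7c-5p, -1.01 for miR-151-3p and miR-99b-5p and -0.16 for miR-486a-3p. With both limma fits they were -0.23 for miR-122-5p, -1.30 for let-7c-5p, -0.96 for miR-151-3p and -0.98 for miR-99b-5p. let-7c-5p, at 0.03, was also -0.0281 with RLE factors and with DESeq2 on all libraries, -0.0333 with DESeq2 on the VE and FAC libraries, -0.24 with total counts, -0.10 without a filter, -0.11 in the VE and FAC libraries alone, -0.12 with thinned counts and -0.0779 without the erythroid and liver entries. miR-25-3p was 0.0765 with filterByExpr. With 1 library left out, the ranges that crossed 0 were -0.12 to 0.23 for let-7c-5p, -0.11 to 0.58 for miR-151-3p, -0.0592 to 0.58 for miR-99b-5p, -0.28 to 0.10 for miR-25-3p and -5.75 to 7.25 for miR-23b-5p. The cause of these changes was not tested. With 3 libraries per group, single-library counts and a counting floor that differed between the groups limit what can be read from miRNAs of low count.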
